A study of Mus musculus with 47 samples.

Results

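The genes described here are 8 genes of blood coagulation and fibrinolysis, F7, F10, F13a1, F3, Thbd, Serpinb2, Plau and Plaur, out of 51912 genes in the tables of bone marrow-derived macrophages (BMDMs). F7 was selected on its difference between Zmynd8 cKO and WT BMDMs in these same libraries, and the other 7 genes were chosen by role with the values of these libraries known. Differences between the BMDM genotypes are therefore a description of the members and support nothing beyond themselves. Coagulation starts when tissue factor (F3) on a cell surface binds factor VII (F7), and the complex activates factor X (F10), which turns prothrombin into thrombin. Thrombin makes fibrin, factor XIII (F13a1) crosslinks it, and thrombin bound to thrombomodulin (Thbd) instead activates the anticoagulant protein C. Urokinase (Plau), held on cells by its receptor (Plaur) and blocked by the inhibitor Serpinb2, activates plasminogen, and the plasmin formed dissolves fibrin; macrophages are a known source of several of these proteins outside the liver.

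The study asked how ZMYND8, a reader of histone marks, and the NF-κB subunit p65 (gene Rela) shape macrophage gene expression. RNA-seq was available for 12 libraries, 6 from BMDMs and 6 labelled Raw264.7, a mouse macrophage line. BMDMs came from C57BL/6 mice, were grown from marrow with M-CSF and were WT (floxed littermates without Cre, matched for sex and age) or Zmynd8 cKO (floxed Zmynd8 with heterozygous Lyz2-Cre, which acts in myeloid cells). The age of these mice is not given in the sources used here. Per genotype, 1 library was untreated (NT), 1 was treated with 100 ng/ml LPS for 6 h and 1 with 20 ng/ml IL-4 for 6 h. RNA of 3 biological replicates had been mixed into each BMDM library, so no difference has a replicate check and no p-value is given.

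The Raw264.7 libraries were Zmynd8 KO cells, Zmynd8 KO cells given Zmynd8 back (WT Zmynd8), and Zmynd8 KO cells given a mutant with acidic residues turned to alanine (D/E-A). Their labels name no treatment; the paper describes the RNA-seq of WT Zmynd8 and D/E-A cells as following LPS, and no such statement on Zmynd8 KO cells was found in it. The others were p65 KO cells, p65 KO cells given p65 back (WT p65) and p65 KO cells given p65 with lysine replaced by arginine (K122R), each labelled with LPS but with no dose or time. The KO lines were made with lentiviral guide RNAs, and whether a line was 1 clone is not given in the sources used here. The sample label of WT p65 names p65 KO cells given WT p65. The heading of its values gives only WT and LPS without the KO, so the heading alone does not tell parental from rescued cells.

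BMDM totals were 26209321 counts for WT NT, 22597408 for cKO NT, 24902775 for WT LPS, 23430558 for cKO LPS, 28386612 for WT IL-4 and 26128553 for cKO IL-4. Reads recovered from the Raw264.7 tables totalled 18397028 for WT Zmynd8, 17930091 for D/E-A, 21042628 for Zmynd8 KO, 15665382 for WT p65, 16653841 for K122R and 15127110 for p65 KO. Levels are given as CPM, counts per 1e6 counts of a BMDM library, or as RPM, reads per 1e6 reads in Raw264.7. Higher and lower refer to a fold of 1.2 or more, and a gene passed the filter when its counts averaged 10 or more, or in Raw264.7 its deposited values did. Genes under that fold are called within bounds. The limits in brackets are exact 95% intervals, which reflect counting error and no other source of error.

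The targeted genes were looked at first. Zmynd8 had 87.1 CPM in WT NT and 81.5 in cKO NT, 79.0 and 86.8 with LPS, and 128.1 and 150.9 with IL-4. A count over the whole gene cannot show the loss of the floxed exons, so these values do not check the deletion, and "cKO" stands for the library labelled cKO. In Raw264.7 the deposited Zmynd8 value was 505.8 in WT Zmynd8, 508.7 in D/E-A and 116.5 in Zmynd8 KO. Rela had 1601 reads in WT p65, 5850 in K122R and 765 in p65 KO, so Rela RNA remained in p65 KO and was far higher in K122R than in WT p65.

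Cell identity was checked next. All 8 macrophage markers were detected in every library, with Lyz2 the most abundant in the BMDM libraries and in the Zmynd8-line libraries. Their sum was lower in cKO than in WT under each treatment, at 14670 against 18280 CPM in NT, 9586 against 13280 with LPS and 14810 against 18580 with IL-4. Lyz2, whose locus also drives the Cre, had 287004 counts in WT NT and 162753 in cKO NT, 171869 and 67763 with LPS, and 253808 and 137038 with IL-4. Without Lyz2 the other 7 markers summed to 7327 CPM in WT and 7466 in cKO in NT, 6380 and 6694 with LPS, and 9637 and 9567 with IL-4, so the lower sum in cKO was that of Lyz2. Of the 8 markers, 2 were higher and 5 lower in cKO in NT (median -0.45), beside 28.1% and 31.7% of all tested genes. With LPS 2 were higher and 2 lower (median -0.11), beside 27.0% and 17.4%, and with IL-4 3 and 3 (median 0.02), beside 20.8% and 16.7%. The part of these differences in the members' genotype values was not tested. LPS response genes (6 genes) summed to 122.9 and 82.0 CPM in WT and cKO NT and to 15320 and 15380 CPM with LPS. IL-4 response genes (4 genes) summed to 445 and 281 CPM in NT and to 2931 and 2844 CPM with IL-4, so the genes of both responses were high in the libraries that carry those labels. The LPS response genes were at 117.0 CPM in WT IL-4 and 415 in cKO IL-4. In the Zmynd8-line libraries the LPS response genes summed to 9317 RPM in WT Zmynd8, 11700 in D/E-A and 10480 in Zmynd8 KO, and in the p65 lines to between 8042 and 8983 RPM.

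The Zmynd8-line libraries stood apart from the p65-line libraries under the same cell line label. Xist had 8467 reads in WT Zmynd8, 8062 in D/E-A and 7109 in Zmynd8 KO, while in the p65 lines the most abundant sex-linked gene was the Y-linked Ddx3y, with 400 reads in WT p65, 1810 in K122R and 677 in p65 KO. Neutrophil markers (9 genes, all detected) summed to 10420 RPM in WT Zmynd8, 4439 in D/E-A and 6995 in Zmynd8 KO, led by S100a9 or Ngp, against at most 0.319 RPM in the p65 lines. B cell markers (3 genes, all detected) summed to 100 RPM in WT Zmynd8, 109 in D/E-A and 80.4 in Zmynd8 KO, and to at most 0.255 RPM in the p65 lines. Raw264.7 was derived from a male mouse, so the Zmynd8-line data go against their label, and these 3 libraries are called the Zmynd8-line libraries here. No fold change sets a Zmynd8 line against a p65 line. In the BMDM libraries Ddx3y was at 0 and Xist was the most abundant sex-linked gene. Xist had 19386 counts in WT NT and 7310 in cKO NT, 6133 and 10046 with LPS, and 31447 and 27605 with IL-4. Its log2 fold change of cKO over WT was -1.19 in NT, 0.80 with LPS and -0.07 with IL-4. The part of this difference in the members' genotype values was not tested. Genes of large peritoneal macrophages (9 genes) summed to 4.69 to 9.64 CPM over the BMDM libraries with Icam2 or Garnl3 highest, and genes of alveolar macrophages (8 genes) to 51.7 to 430.5 CPM with Fabp4, Marco or Pparg highest. Dendritic cell markers (6 genes, Itgax highest, Cd209a at 0 in 5 of 6) summed to 34.3 to 246.9 CPM, fibroblast markers (5 genes) to at most 2.01, mast cell and basophil markers (5 genes, Fcer1a at 0 in the 6) to at most 1.33, and B cell markers to at most 0.427 CPM. In such bulk samples, fewer cells of a type and less RNA per cell cannot be told apart.

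Tissue factor, the receptor that starts coagulation, had few counts in each of the 6 BMDM libraries. F3 had 16 counts in WT NT, 22 in cKO NT, 48 in WT LPS, 59 in cKO LPS, 10 in WT IL-4 and 4 in cKO IL-4. Both LPS libraries were above the NT and IL-4 libraries, and the genotypes did not differ beyond counting limits under any treatment. Ordered by level, cKO IL-4, WT IL-4, WT NT and cKO NT followed each other without a step beyond counting limits, and the LPS libraries came above them. F3 was higher with LPS than in NT, with log2 fold changes of 1.63 in WT (limits 0.82 to 2.57) and 1.35 in cKO (0.64 to 2.15).

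Factor VII, the protease that tissue factor binds, was the member on which the choice rested. F7 had 407 counts in WT NT, 1803 in cKO NT, 1114 in WT LPS, 3663 in cKO LPS, 190 in WT IL-4 and 2027 in cKO IL-4. That is 15.5, 79.8, 44.7, 156.3, 6.69 and 77.6 CPM in the same order. By CPM each cKO library lay above the 3 WT libraries, and the order from the lowest was WT IL-4, WT NT, WT LPS, cKO IL-4, cKO NT and cKO LPS. By deposited TPM, cKO IL-4 at 36.3 and WT LPS at 37.1 change places, across tables that differ in F7's TPM per CPM. Only cKO IL-4 and cKO NT, neighbours in that order, did not differ beyond counting limits, with a ratio between 0.965 and 1.10. The 6 libraries spanned a 23.3-fold range.

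In NT, F7 was 5.13-fold higher in cKO (log2 fold change 2.36, limits 2.21 to 2.52). With LPS it was 3.49-fold higher (1.80, 1.71 to 1.90), and with IL-4 11.6-fold higher (3.53, 3.32 to 3.76). The gap between genotypes was thus widest with IL-4, where WT was at its lowest level. F7 was higher with LPS than in NT in both genotypes, at 1.53 in WT (1.36 to 1.69) and 0.97 in cKO (0.89 to 1.05). With IL-4 it was lower than in NT in WT, at -1.21 (-1.47 to -0.96), and in cKO it was within bounds at -0.04 (-0.13 to 0.05) by counts, but lower at -0.68 by deposited TPM, across tables that differ in F7's TPM per CPM. Whether the genotypes differ in these responses was not tested.

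Factor X, the protease that makes thrombin, differed far more between LPS and NT than between genotypes. F10 had 444 counts in WT NT, 748 in cKO NT, 12595 in WT LPS, 9062 in cKO LPS, 729 in WT IL-4 and 1262 in cKO IL-4. The LPS libraries, at 505.8 CPM in WT and 386.8 CPM in cKO, stood above the other 4, which lay between 16.9 and 48.3 CPM. All neighbours in the order WT NT, WT IL-4, cKO NT, cKO IL-4, cKO LPS and WT LPS differed beyond counting limits. F10 was 29.8-fold higher with LPS than in NT in WT (log2 fold change 4.90, 4.76 to 5.04) and 11.7-fold in cKO (3.55, 3.44 to 3.66). The genotype difference had one sign in NT and with IL-4, where cKO was higher (0.97, 0.80 to 1.14, and 0.91, 0.78 to 1.04), and the other with LPS, where cKO was lower (-0.39, -0.43 to -0.35).

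The A subunit of factor XIII, the transglutaminase that crosslinks fibrin, was highest in the IL-4 libraries. F13a1 had 32 counts in WT NT, 170 in cKO NT, 28 in WT LPS, 37 in cKO LPS, 1363 in WT IL-4 and 4899 in cKO IL-4. Its 163.8-fold range from WT LPS to cKO IL-4 was the widest among the 8 members. WT LPS, WT NT and cKO LPS did not differ beyond counting limits as neighbours, and cKO NT, WT IL-4 and cKO IL-4 each lay a step above. F13a1 was 38.7-fold higher with IL-4 than in NT in WT (log2 fold change 5.28, 4.79 to 5.85) and 24.9-fold in cKO (4.64, 4.42 to 4.87). It was higher in cKO in NT (2.61, 2.07 to 3.22) and with IL-4 (1.96, 1.88 to 2.05), while with LPS the difference of 0.48 had limits from -0.26 to 1.25. With LPS it was lower than in NT in cKO (-2.24, -2.81 to -1.73), and in WT, with 28 and 32 counts, the log2 fold change was -0.12 (-0.90 to 0.66), and 0.49 when scaled by the median of ratios.

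F13a1 is also made by platelets and monocytes, so genes of these cells are given beside it. Platelet and megakaryocyte markers (5 genes) summed to 120.6 CPM in WT NT, 294.8 in cKO NT, 29.6 in WT LPS, 53.1 in cKO LPS, 385.3 in WT IL-4 and 660.3 in cKO IL-4, with Pf4 the most abundant in each. The more lineage-bound Gp9 and Gp1bb had 0 to 4 counts in each of the 6 libraries. Of the monocyte genes, Ccr2 had 167 counts in WT NT, 338 in cKO NT, 93 in WT LPS, 258 in cKO LPS, 1841 in WT IL-4 and 4215 in cKO IL-4. Cx3cr1 had 6157 and 3969 counts and Ly6c2 391 and 698 counts in WT and cKO IL-4, against at most 157 and 172 counts in the NT and LPS libraries. Like F13a1, these 3 genes were highest in the IL-4 libraries, and Ccr2 was higher in cKO than in WT under each treatment. Neutrophil markers summed to 2.37 and 2.39 CPM in NT, 4.22 and 2.56 with LPS, and 382.9 and 515.0 with IL-4, when all 9 were detected and S100a9 led. The platelet sum, made up mostly of Pf4, was thus higher in cKO than in WT under the 3 treatments, as F13a1 counts were. By gene, 2 of 2 past the filter were higher in cKO in NT and 3 of 3 with IL-4, beside 28.1% and 20.8% of all tested genes. With LPS 1 of 2 was higher (Pf4) and 1 lower (Itga2b, 17 counts against 32), beside 27.0% and 17.4%. The part of these platelet, monocyte and neutrophil genes in the result was not tested.

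**Figure D1:**
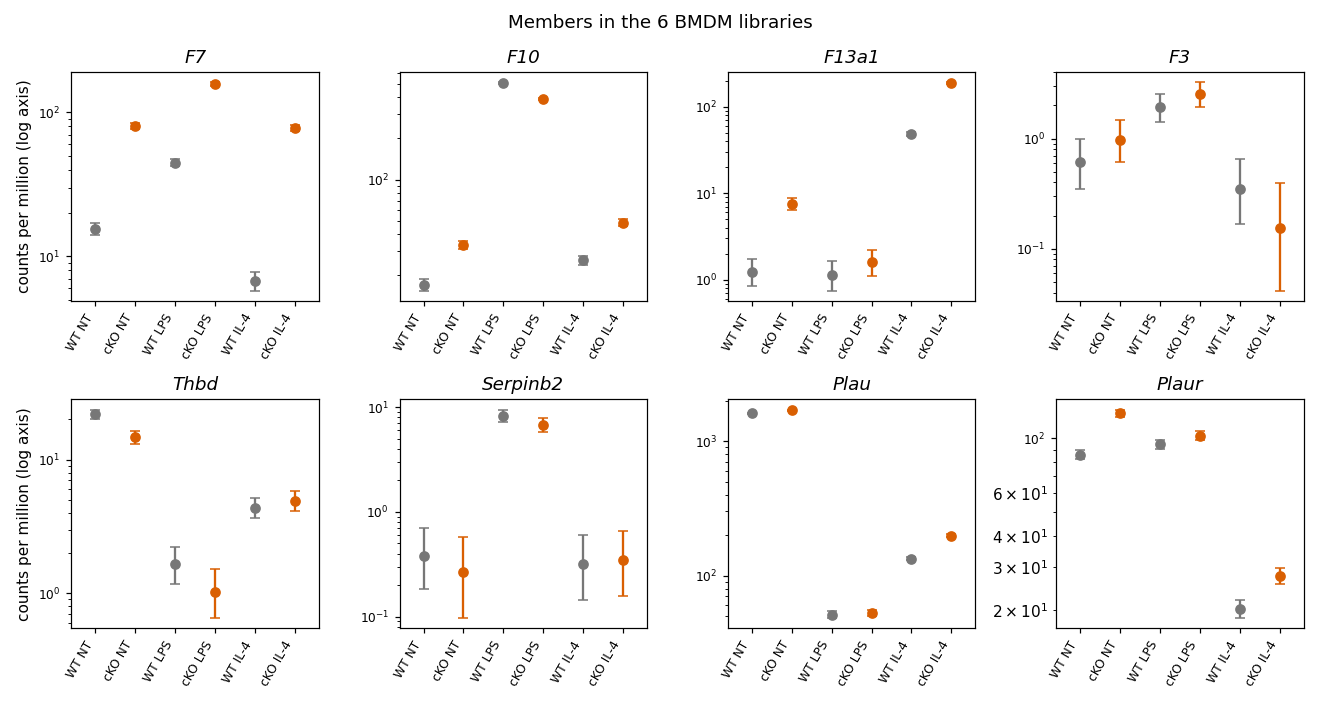
Level of each member in the 6 BMDM libraries, as CPM on a log axis, with points for the 1 library of each condition (grey WT, orange cKO) and bars for 95% counting limits. F7 lies higher in cKO under each treatment, F10 and Serpinb2 are highest with LPS, F13a1 is highest with IL-4, and Thbd and Plau are highest in NT.

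Thrombomodulin, the thrombin receptor that turns the protease toward protein C, was highest without treatment. Thbd had 573 counts in WT NT, 333 in cKO NT, 41 in WT LPS, 24 in cKO LPS, 124 in WT IL-4 and 129 in cKO IL-4. The LPS libraries were the lowest and did not differ from each other beyond counting limits, nor did the IL-4 libraries, and WT NT exceeded cKO NT. Thbd was 13.1-fold lower with LPS than in NT in WT (log2 fold change -3.71, -4.23 to -3.27) and 14.1-fold in cKO (-3.82, -4.51 to -3.25). With IL-4 it was also lower than in NT, at -2.32 (-2.62 to -2.04) in WT and -1.57 (-1.88 to -1.28) in cKO. In NT it was lower in cKO (-0.57, -0.77 to -0.37), with LPS the value of -0.67 had limits from -1.48 to 0.08, and with IL-4 it was 0.18 (-0.19 to 0.54). Thbd is best known from endothelium, and the 5 endothelial markers summed to 60.4 and 26.6 CPM in NT, 150.5 and 135.8 with LPS, and 58.0 and 55.1 with IL-4, led by Kdr or Pecam1, with Tie1 at 0 to 3 counts. In NT both this sum and Thbd were lower in cKO than in WT, while with LPS the sum was highest and Thbd lowest, and the part of these genes in the result was not tested.

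Urokinase, the plasminogen activator, was the most abundant member by TPM in NT. Plau had 42134 counts in WT NT, 38480 in cKO NT, 1278 in WT LPS, 1234 in cKO LPS, 3802 in WT IL-4 and 5182 in cKO IL-4. The 2 NT libraries stood above the 4 treated ones, and in the order WT LPS, cKO LPS, WT IL-4, cKO IL-4, WT NT and cKO NT only the LPS libraries did not differ beyond counting limits. Plau was 31.3-fold lower with LPS than in NT in WT (log2 fold change -4.97, -5.05 to -4.89) and 32.3-fold in cKO (-5.01, -5.10 to -4.93), and with IL-4 it was lower at -3.59 (-3.63 to -3.54) and -3.10 (-3.14 to -3.06). Between genotypes it was within the 1.2-fold bounds in NT (0.08) and with LPS (0.04), and it was 1.48-fold higher in cKO with IL-4 (0.57, 0.51 to 0.63).

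The urokinase receptor moved less. Plaur had 2247 counts in WT NT, 2856 in cKO NT, 2353 in WT LPS, 2401 in cKO LPS, 573 in WT IL-4 and 717 in cKO IL-4. Its 6.26-fold range was the narrowest among the 8 members, with the IL-4 libraries lowest, and all neighbours in the order WT IL-4, cKO IL-4, WT NT, WT LPS, cKO LPS and cKO NT differed beyond counting limits. Against NT, the IL-4 values were lower, at -2.09 (-2.22 to -1.95) in WT and -2.20 (-2.32 to -2.08) in cKO. Plaur was higher in cKO in NT (0.56, 0.48 to 0.64) and with IL-4 (0.44, 0.28 to 0.60), and within bounds with LPS (0.12). Under LPS the scaling decided its direction: with library totals the log2 fold change against NT was 0.14 in WT and -0.30 in cKO, with the median of ratios 0.75 and 0.27, and with TMM 0.82 and 0.31.

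Serpinb2, an inhibitor of urokinase also called PAI-2, was seen mainly with LPS. It had 10 counts in WT NT, 6 in cKO NT, 206 in WT LPS, 158 in cKO LPS, 9 in WT IL-4 and 9 in cKO IL-4. The 4 libraries not given LPS did not differ beyond counting limits as neighbours, nor did the 2 LPS libraries. Serpinb2 was 20.7-fold higher with LPS than in NT in WT (log2 fold change 4.37, 3.53 to 5.52) and 23.5-fold in cKO (4.56, 3.51 to 6.13). With LPS the genotype difference was -0.29 with limits from -0.60 to 0.01, and in NT and IL-4 it stayed below the count filter.

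Levels of different members were compared only per length, as TPM within a library. In WT NT, Plau had 1073 TPM and made up 88.4% of the summed TPM of the 8 members, and in cKO NT it made up 81.7%. With LPS, F10 led with 408.3 TPM (69.3%) in WT and 329.8 TPM (52.2%) in cKO, where F7 followed with 137.3 TPM (21.7%). With IL-4, Plau led again with 90.8 TPM in WT and 131.9 TPM in cKO, and F13a1 came next in cKO with 71.6 TPM. The most abundant member by TPM was therefore Plau in NT and IL-4 libraries and F10 in LPS libraries, in both genotypes. The IL-4 table lists another length than the NT and LPS tables for 18963 genes. Among members these are F10 (609 in NT and LPS, 2503 in IL-4), F3 (700 and 1872), Serpinb2 (347 and 1996), Plaur (347 and 2009) and F13a1 (3854 and 3877). F10 had 0.845 TPM per CPM in WT NT and 0.921 in WT IL-4. F7 had 0.871 TPM per CPM in WT NT but 0.453 in WT IL-4, with the same listed length of 1859 in both tables, and the cause was not tested. TPM levels are therefore compared within a library, and TPM fold changes between the IL-4 and NT tables carry this difference.

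Set against all genes, the members were counted by direction. In NT, 5 of the 7 members past the filter were higher in cKO (background 28.1% of 12463 genes) and 1 was lower (31.7%). F3, counted as higher with 0.66 (-0.32 to 1.70), was at -0.0356 when TPM replaced counts, so it has no settled direction in NT. With LPS, 3 of 8 were higher (background 27.0%) and 3 lower (17.4%), but among these 6 members the limits lay away from 0 for F7 and F10 alone. In the IL-4 libraries the fold rule put 5 of 6 members above WT (20.8%) and 0 below (16.7%). The choice of members used these comparisons, so nothing is read from the counts. With TPM in NT, the share of higher genes among all past the fold went from 47.1% to 23.4% and the median of all tested genes from -0.02 to -0.25, with F7 at 2.09 and F10 at 0.66. The comparisons of LPS or IL-4 with NT reuse the same NT libraries, and their values stand side by side.

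In WT, the LPS library had 4 of 8 members higher (background 22.9%) and 2 lower (64.8%), and in cKO 4 of 8 higher (26.0%) and 4 lower (61.7%). Serpinb2 in cKO passed the filter through the LPS library alone, with 158 counts against 6. The whole distribution had shifted: the median log2 fold change of all tested genes was -0.70 in WT and -0.65 in cKO with library totals. With the median of ratios it was -0.09 and -0.07, and the share of higher genes among those past the fold went from 26.1% to 46.4% in WT and from 29.7% to 47.5% in cKO. With TMM, another scaling, the medians were -0.02 and -0.03 and the shares 49.3% and 48.9%. F7, F10, F3, Serpinb2 and Plaur lay above that median and Thbd and Plau below it in both genotypes, Plaur in cKO although it counted as lower there, and F13a1 lay above it in WT and below it in cKO. These scalings shift all genes alike and so do not change a gene's side of it. In cKO with TPM, the share was 37.9% and the median -0.35.

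Against NT, the IL-4 library had 2 of 7 members past the filter higher in WT (background 43.9%) and 5 lower (24.8%), and in cKO 2 of 7 higher (46.7%) and 4 lower (27.8%). F10 and F13a1 were the higher members in both genotypes, and F3, Thbd, Plau and Plaur were lower in both, though F3 in WT had limits that included 0. F3 in cKO passed the filter through the NT library alone, with 22 counts against 4. F7 was lower in WT, and in cKO it was within bounds by counts. With TPM these values were -2.12 in WT and -0.68 in cKO, across tables in which F7's TPM per CPM fell from the 0.871 to the 0.453 given above in WT and from 0.728 to 0.467 in cKO. The median of all tested genes was 0.17 in WT and 0.19 in cKO, and the share of higher genes went from 64.0% to 50.7% in WT and from 62.7% to 50.7% in cKO with the median of ratios, to 51.2% and 50.9% with TMM, and in cKO to 76.2% with TPM of those same tables, where the median was 0.43. IL-4 libraries carry another sequencing name and another table than NT libraries, so IL-4 and that difference cannot be told apart.

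**Figure D2:**
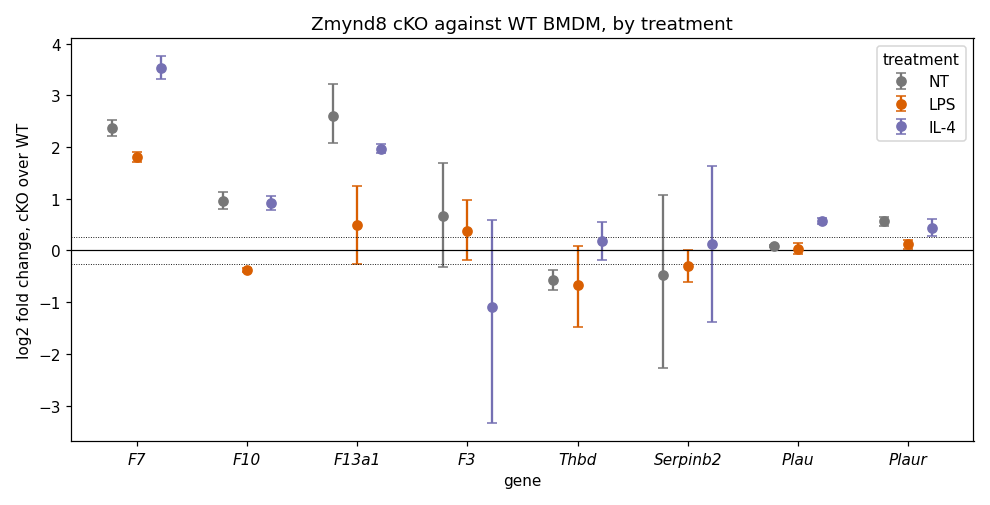
Log2 fold change of cKO over WT for each member in NT, LPS and IL-4 BMDMs, with points for the ratio of 1 library to 1 library and bars for 95% counting limits; dotted lines mark a fold of 1.2. F7 is above the lines under all 3 treatments, F10 is above them in NT and IL-4 and below with LPS, and the wide bars of F3 and Serpinb2 rest on few counts, with F3 in NT at -0.0356 when TPM replaced counts.

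In the libraries labelled Raw264.7, F7 and F10 had more reads in the Zmynd8 lines than in the p65 lines. F7 had 794 reads in WT Zmynd8, 120 in D/E-A, 654 in Zmynd8 KO, 5 in WT p65, 16 in K122R and 2 in p65 KO. F10 had 9783 reads in WT Zmynd8, 3922 in D/E-A, 6369 in Zmynd8 KO, 27 in WT p65, 165 in K122R and 15 in p65 KO. In the Zmynd8-line libraries both genes had at least 120 reads, and in the p65 lines at most 165. F3 ran the other way, with 13 reads in WT Zmynd8 and 29 in Zmynd8 KO against 35 in WT p65, 71 in K122R and 73 in p65 KO, and it is not listed in the D/E-A table, which holds 12771 genes.

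F13a1 had 1252 reads in WT Zmynd8, 2703 in D/E-A, 2412 in Zmynd8 KO, 2 in WT p65 and 0 in K122R and p65 KO, with upper limits of 0.222 and 0.244 RPM. Thbd had 38, 51 and 64 reads in WT Zmynd8, D/E-A and Zmynd8 KO and was not listed for the p65 lines. F13a1 was thus high in the Zmynd8-line libraries and at most 2 reads in the p65 lines. Beside it, platelet markers (5 genes, Pf4 highest, Gp1bb at 720, 217 and 514 reads) summed to 660.3 RPM in WT Zmynd8, to 336.0 in D/E-A and to 571.7 in Zmynd8 KO. Serpinb2 had 391 reads in WT Zmynd8, 832 in D/E-A, 811 in Zmynd8 KO, 8 in WT p65, 19 in K122R and 4 in p65 KO. Its reads were thus highest in D/E-A and Zmynd8 KO. Plau had 197 reads in WT Zmynd8, 172 in D/E-A, 190 in Zmynd8 KO, 518 in WT p65, 3007 in K122R and 915 in p65 KO. Plaur had 1843 reads in WT Zmynd8, 1711 in D/E-A, 2048 in Zmynd8 KO, 5479 in WT p65, 7988 in K122R and 4756 in p65 KO. Plau and Plaur were higher in the p65 lines, as RPM too, where Plaur was at 349.8 in WT p65 against 100.2 in WT Zmynd8. Tables were normalized separately, so these levels are set side by side and not tested across tables.

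Against WT Zmynd8, D/E-A had 3 of 7 listed members higher (background 36.7%) and 2 lower (35.9%). The genes listed for this comparison all have at least 21 reads in WT Zmynd8, while in D/E-A they go down to 0. Genes low in WT Zmynd8 and higher in D/E-A are therefore missing from these counts and shares. F7 was 6.29-fold lower (log2 fold change -2.65, -2.95 to -2.38) and F10 2.38-fold lower (-1.25, -1.31 to -1.20). F13a1 was higher (1.18, 1.08 to 1.28), as was Serpinb2 (1.16, 0.98 to 1.33), and Thbd at 0.49 had limits from -0.14 to 1.14. Neutrophil markers, at 10420 RPM in WT Zmynd8 and 4439 in D/E-A, moved down with F7 and F10, and macrophage markers, at 4978 and 9447 RPM, moved up with F13a1, while platelet markers were lower in D/E-A than in WT Zmynd8. Endothelial markers (5 genes, Kdr highest) summed to 57.0 RPM in WT Zmynd8 and 87.3 in D/E-A, and are given beside Thbd. The part of these marker genes in the differences was not tested.

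Zmynd8 KO against the same WT Zmynd8 library had 4 of 8 members higher (background 34.8%) and 2 lower (28.4%). F7 was lower at -0.40 (-0.55 to -0.25), as was F10 at -0.74 (-0.79 to -0.69). Here F7 was lower in Zmynd8 KO than in KO cells given Zmynd8 back. In BMDMs F7 was higher in cKO than in floxed WT without Cre under each treatment. The reference and the cells differ, so these contrasts are unlike. F13a1 (0.82, 0.73 to 0.92), Serpinb2 (0.93, 0.76 to 1.11), F3 (1.01, 0.05 to 2.10) and Thbd (0.62, 0.03 to 1.25) were higher, and Plau and Plaur were within bounds. Neutrophil markers were at 6995 RPM, macrophage markers at 6388 RPM and endothelial markers at 77.5 RPM in Zmynd8 KO, each between the other 2 libraries. Endothelial markers were thus above WT Zmynd8, as Thbd was. The part of these marker genes was not tested. Both comparisons share the WT Zmynd8 library.

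K122R against WT p65 had 6 of 6 members past the filter higher (background 26.5%) and 0 lower (28.6%). Of these, F7 and Serpinb2 passed only through K122R, with deposited values of 16.3 and 19.4 against 4.9 and 7.8 in WT p65. Those genes could therefore be counted only as higher, and nothing is read from the count. F13a1, with 0 reads against 2, did not pass. Plau was 6.03-fold higher (log2 fold change 2.59, 2.46 to 2.73) and F10 6.25-fold higher (2.64, 2.07 to 3.31). Plaur (0.60, 0.55 to 0.65) and F3 (1.06, 0.47 to 1.70) were higher, and F7 (1.64, 0.22 to 3.54) and Serpinb2 (1.25, 0.04 to 2.70) rested on 16 and 19 reads in K122R. With recovered reads divided by library totals, the share of higher genes among all past the fold went from 48.1% to 31.2% and the median of all tested genes to -0.16, with Plau at 2.45 and Plaur at 0.46. Rela itself was 3.80-fold higher in K122R than in WT p65, so the mutation and the amount of Rela RNA cannot be told apart. The 2 libraries also differed in Y-linked genes: 4 of 4 past the filter were higher in K122R (median 2.01), such as Ddx3y with 1810 reads against 400, and the part of this difference in the members' values was not tested.

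p65 KO against the same WT p65 library had 2 of 4 members past the filter higher (background 19.4%) and 1 lower (19.5%). Plau (0.87, 0.71 to 1.03) and F3 (1.10, 0.51 to 1.73) were higher, F10 at -0.78 had limits from -1.81 to 0.16, and Plaur was within bounds (-0.15). F7, with 2 reads against 5, had a log2 ratio of -1.10 with limits from -4.67 to 1.34, which shows no direction at this depth. The Y-linked genes were higher here too, 4 of 4 past the filter (median 0.66), with Ddx3y at 677 reads against 400, and their part in the members' values was not tested.

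**Figure D3:**
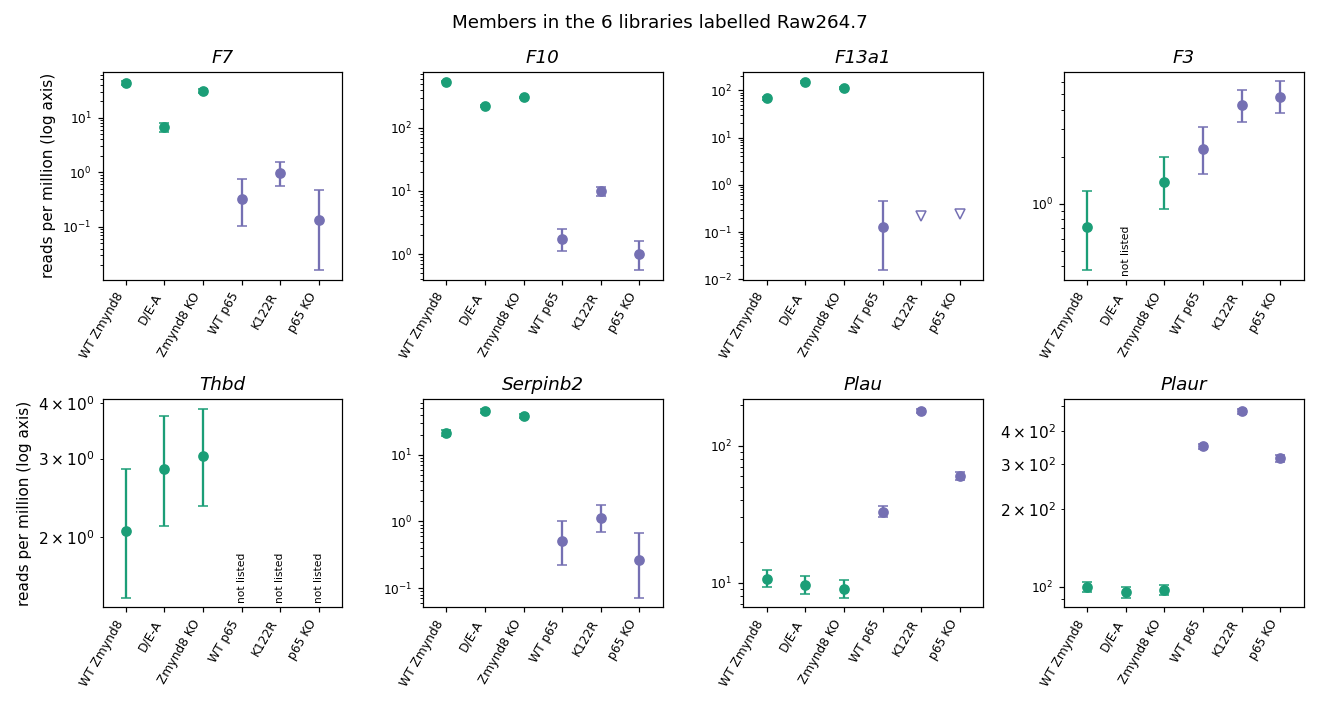
Level of each member in the 6 libraries labelled Raw264.7, as RPM on a log axis, with points for 1 library each (green Zmynd8 lines, purple p65 lines), bars for 95% counting limits, and triangles for the upper limit of 0 reads. F7, F10, F13a1 and Serpinb2 are higher in the Zmynd8 lines and F3, Plau and Plaur in the p65 lines.

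Other genes of the pathway gave the members their setting. Of 14 other clotting factors, such as prothrombin (F2) and fibrinogen (Fga, Fgb, Fgg), 5 had reads in WT NT, and Vwf, the platelet-adhesion protein, held 3291 of their 3340 counts. In NT, 2 of the 3 past the filter were higher in cKO, beside 28.1% of all tested genes, and 0 lower. These were F9, with 42 counts against 22, and F5, with 17 against 16, whose value of 0.30 is the list's median and has limits from -0.77 to 1.38 (all tested genes -0.02). With LPS 2 of 5 were higher and 2 lower in cKO than in WT (median 0.22, all genes 0.04), beside 27.0% and 17.4% of all tested genes. With IL-4 they were 2 of 4 and 2 of 4 (median -0.01, all genes 0.01), beside 20.8% and 16.7%. Vwf was lower with IL-4 than in NT in WT (-1.55) and cKO (-0.89). Against NT with LPS it had -0.85 in WT and -0.54 in cKO, beside medians of -0.70 and -0.65 for all genes, and with the median of ratios -0.24 and 0.04, which are within bounds.

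Genes of the vitamin K cycle, propeptide cleavage and factor export were all 6 detected. In cKO against WT NT 1 was higher (Vkorc1, 0.34, but 0.07 with TPM) and 5 within, beside 28.1% higher and 31.7% lower among all tested genes, with a median of -0.11 beside -0.02. Between genotypes 1 of 6 was higher and 1 lower with LPS (median -0.06), beside 27.0% and 17.4%, and 0 and 1 with IL-4 (median 0.03), beside 20.8% and 16.7%. With LPS 5 of 6 were lower than in NT in both genotypes, beside 64.8% of all tested genes in WT and 61.7% in cKO (median -1.48 beside -0.70 in WT), Vkorc1l1 the lowest at -2.43, and with IL-4 the propeptide protease gene Furin was higher (2.18 in WT, 2.03 in cKO).

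Among 12 anticoagulant genes, 7 passed the filter in NT, with 2 higher and 2 lower in cKO (median 0.11, all genes -0.02), near the 28.1% and 31.7% of all tested genes. The genotype counts were 1 higher and 2 lower of 7 with LPS (median -0.12), beside 27.0% and 17.4%, and 2 and 2 of 7 with IL-4 (median -0.05), beside 20.8% and 16.7%. Procr, the receptor of protein C, had 376 counts in WT NT and 13972 in WT LPS, a log2 fold change of 5.29, and 5.37 in cKO, while Gas6 was lower with LPS (-4.67 and -4.91). Thbd and Procr, which act together on protein C, therefore moved in opposite directions with LPS. Of 4 protease-activated receptors 0 passed the filter in NT and F2r was the most abundant with LPS and IL-4, with 32 to 74 counts. In the Zmynd8 lines this list summed to 27.9 to 36.6 RPM.

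In the plasminogen system beyond the members, 7 of 13 genes passed the filter in NT, with 4 higher (Eno1, 0.68) and 2 lower in cKO (median 0.41, all genes -0.02), beside 28.1% and 31.7% of all tested genes. Of the lower genes, Lrp1 had -0.65 by counts but -0.09 with TPM, which is within bounds. The genotype counts were 2 higher and 1 lower of 7 with LPS (median -0.07), beside 27.0% and 17.4%, and 3 and 1 of 8 with IL-4 (median 0.12), beside 20.8% and 16.7%. Plau and Serpinb2, the RNAs of urokinase and of an inhibitor of it, were on opposite sides of NT with LPS. In K122R against WT p65, 5 of 6 genes of this list were higher, beside 26.5% of all tested genes (median 0.75, all genes -0.02), with Anxa2 at 1.08.

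Likeness of pattern was measured by Pearson r of log2 CPM over the 6 BMDM libraries among 7678 genes, as a description. The points share treatment and table, and r was repeated over the 4 libraries left without IL-4, an alternative chosen after seeing the data. F7 was most like Exoc3l4 (0.96 over 6, 0.96 over 4), Ankrd66 (0.94, 0.91), Pilra (0.92, 0.96), Rnd3 (0.89, 0.81) and A230028O05Rik (0.88, 0.84). F10 was most like C1rl and Lst1, F13a1 like Rhof and Fcrls, Thbd like Cep76 and Slc45a4, Plau like Slc20a1 and Mid1ip1, and Plaur like Tpst2 and Tubb6, with r from 0.989 for Fcrls to 0.999 for Slc20a1 over 6 libraries. Among members, Thbd and Plau ran together (0.97 over 6, 0.98 over 4), F7 and F10 less so (0.58 and 0.58), and F13a1 and Plaur turned from -0.83 to 0.93 without the IL-4 libraries.

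F7 and F10 are neighbours on chromosome 8, at 13025506 to 13035805 and 13037308 to 13056676 of mm10 on the plus strand, 1502 bases apart. The 3 protein-coding genes on either side are Tubgcp3, Atp11a and Mcf2l before F7 and Proz, Pcid2 and Cul4a after F10. Of these, 0 were higher in cKO in NT, LPS or IL-4, beside 28.1%, 27.0% and 20.8% of all tested genes. In NT, Tubgcp3 was at -0.11, Atp11a at -0.28, Mcf2l at -0.77, Proz at -0.02, Pcid2 at 0.25 and Cul4a at -0.53, while F7 was at 2.36. Among these 8 genes of the locus, F7 had the highest log2 fold change of cKO over WT in NT, LPS and IL-4. F7 was selected on its difference between these genotypes in the same libraries, so nothing is read from this rank. F7 carries the identifier ENSMUSG00000031443 and F10 ENSMUSG00000031444. The other members lie on other chromosomes, F13a1 (ENSMUSG00000039109) on 13 from 36867178 to 37050244, F3 (ENSMUSG00000028128) on 3 from 121723537 to 121735052, and Thbd (ENSMUSG00000074743) on 2 from 148404471 to 148408188. Serpinb2 (ENSMUSG00000062345) lies on 1 from 107500892 to 107525600, Plau (ENSMUSG00000021822) on 14 from 20836662 to 20843388, and Plaur (ENSMUSG00000046223) on 7 from 24460937 to 24475968.

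Promoter windows of RefSeq (GRCm38.p6) were found for 6 of the 8 members and not for Thbd and Plau. They were searched on both strands for the NF-κB motif, the AP-1 motif TGANTCA, the cAMP response element TGACGTCA, the ETS core GAGGAA and the GC box GGGCGG. The 6 members have 8 windows, as F13a1 and Serpinb2 have 2 each. Of these 8 windows of 300 bases, 4 held the NF-κB motif (50.8% of all 32851 windows hold it), 4 the AP-1 motif (7.81%), 4 the ETS core (28.3%), 2 the GC box (35.7%) and 0 the cAMP response element (1.79%). The 2 windows of Serpinb2 overlap. The members with AP-1 letters were F3, Serpinb2 and Plaur. These matches are descriptions of letters and not sites of binding. The 250 bases before the starts of F7 and F10 are shown because these neighbouring genes both had higher counts in cKO in NT; capitals mark the ETS core on the minus strand in F7 (from -144) and the NF-κB match on the minus strand in F10 (from -245). The F7 window, chr8:13025784-13026033 on the plus strand, lies within the gene as annotated from 13025506, and the F10 window is chr8:13037058-13037307 on the plus strand.
F7: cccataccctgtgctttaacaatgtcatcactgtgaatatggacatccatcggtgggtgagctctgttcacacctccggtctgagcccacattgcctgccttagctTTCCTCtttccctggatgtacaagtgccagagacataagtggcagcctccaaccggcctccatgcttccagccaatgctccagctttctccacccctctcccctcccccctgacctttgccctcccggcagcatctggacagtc
F10: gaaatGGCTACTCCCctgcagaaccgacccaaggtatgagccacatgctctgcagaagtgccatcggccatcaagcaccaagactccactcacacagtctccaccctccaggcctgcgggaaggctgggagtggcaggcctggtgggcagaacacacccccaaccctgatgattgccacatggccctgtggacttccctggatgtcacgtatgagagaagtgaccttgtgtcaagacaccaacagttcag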

How the data were processed

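RNA-seq tables of 12 libraries were used, 1 library per group, and 35 samples of the series were not analysed here. The deposited BMDM tables give expected counts (estimated counts per gene), which the authors made from polyadenylated RNA aligned with TopHat to the mm10 transcriptome. Not all values above 0 were whole, and counts are printed rounded. The same deposited tables give TPM, scaled by the authors per length and library. The deposited Raw264.7 tables give a signal per gene that the authors had scaled by 1 factor per library; the values were whole multiples of 1 step per library within 0.1 reads, apart from 1 value (Zmynd8 in Zmynd8 KO), so reads were recovered. For WT Zmynd8, reads came from the table shared with Zmynd8 KO. The authors' comparison columns (log2 fold changes and p-values in files named for DEGseq for BMDMs) were not used, nor were 2 unlabelled numeric columns. The BMDM tables held 431, 431 and 2 entries without a gene ID in NT, LPS and IL-4.

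Log2 fold changes were computed from counts plus 0.5 per library total, or deposited values plus 0.5 in Raw264.7, for 7 BMDM and 4 Raw264.7 comparisons, without a statistical test. A pseudocount of 0.5 counts was used because 1 CPM shrinks the fold changes of low members. Limits were exact Clopper-Pearson intervals for ratios and Poisson intervals for levels, and the limits code was tested on simulated data. Alternatives were 1 CPM (or 1 in Raw264.7) added, no filter, a mean of at least 50, the median of ratios, TMM, reads over library totals in Raw264.7, a fold of at least 2, TPM plus 0.1, and, chosen after seeing the data, likeness without the IL-4 libraries. Tools were Python 3.11.15, numpy 2.4.6, pandas 2.3.3, scipy 1.17.1, R 4.3.3 and edgeR 4.0.16, the last used for TMM alone.

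Members and lists were chosen with earlier results of these data known. Named genes were the 8 members; up to 2 genes per pathway list and comparison with the largest absolute log2 fold change among those averaging 100 counts or more (Raw264.7: a mean value of 10 or more); the 5 genes most like F7 and 2 for each other member, by Pearson r among genes averaging 100 counts or more whose log2 range was 1 or more; and 3 protein-coding neighbours on each side of F7 and F10. Marker, response and targeted genes are named as checks. F3 and Serpinb2 had too few counts for likeness.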

Additional observations from a re-analysis of the deposited data

Results flagged for a closer look

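The genotype difference of F10 had opposite signs under the treatments of BMDMs. The log2 fold change of cKO over WT was 0.97 in NT and -0.39 with LPS, which differ by 1.35. The value with LPS minus that with IL-4, where it was 0.91, was -1.30. Each value rests on 1 library per group, and neither difference was tested.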

How the results depend on the processing

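With 1 library per group no replicate could be left out. No paired analysis was possible because no samples are paired by the labels. Of 73 counts of members past the fold under alternatives, 67 stayed within 1.5 times the reported count. At a fold of at least 2, the count went from 6 to 2 in NT, from 6 to 1 with LPS and from 5 to 2 with IL-4 for cKO against WT, from 6 to 1 for Zmynd8 KO and from 3 to 1 for p65 KO, since that fold is stricter by construction. Without the filter, the p65 KO count went from 3 to 6, since members with few reads then enter. Of 311 member fold changes under alternatives, 244 stayed within counting limits, 64 moved outside them and 3 that had passed the fold changed sign; with values under the fold included, 11 changed sign. F3 in NT, cKO against WT, went from 0.66 to -0.0356 with TPM, and the cause was not tested. Plaur in cKO, LPS against NT, went from -0.30 to 0.27 with the median of ratios and 0.31 with TMM, since these scalings shift all genes by the same amount. With 1 CPM added, values resting on few counts moved toward 0, such as Serpinb2 with LPS in WT from 4.37 to 2.75 and F3 with IL-4 in cKO from -2.53 to -0.78. Other named genes were run under the same alternatives after seeing the data; of their 97 fold changes, 60 stayed within counting limits, 35 moved outside and 2 that had passed the fold changed sign, both of Vwf in cKO, LPS against NT, from -0.54 to 0.0393 with the median of ratios and 0.0805 with TMM. Without the IL-4 libraries, an alternative chosen after seeing the data, all 15 likeness values of members with other genes moved by less than 0.1, as did 6 of the 15 between members. Depth limits, among others, F3 and Serpinb2 in BMDMs, F3 in the Zmynd8 lines, and F7, F13a1 and Serpinb2 in the p65 lines.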

Other observations

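Zmynd8 had 1070 reads in K122R and 1826 in WT p65, a log2 fold change of -0.72 (limits -0.83 to -0.61), and 1624 reads in p65 KO. Other genes of the coagulation lists named in the p65 lines by the rule for named genes were Serpinc1 in K122R, with 8 reads against 35 in WT p65 (-2.01, limits -3.39 to -0.94), and Tfpi in p65 KO, with 17 reads against 3 in WT p65 (2.37, 0.76 to 4.96).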
